A study of Mus musculus with 6 samples.

Results

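The tropomyosins (Tpm1, Tpm2, Tpm3 and Tpm4), the tropomodulins Tmod1, Tmod2 and Tmod3, and leiomodin 1 (Lmod1) were examined in mouse aorta after deletion of Srf, which encodes serum response factor. These 8 genes were taken by symbol from the 55453 genes of the deposited count table. Their values were not used as a filter, but earlier results of these data were known when they were chosen. All 8 were present and all 8 were among the 18192 genes with enough counts to be tested. Every animal in both groups was hemizygous for Itga8-CreERT2, a Cre recombinase that acts in smooth muscle cells once tamoxifen is given, and carried a floxed Srf allele. The heterozygous controls had this allele in 1 copy, so their recombined cells lack 1 copy of Srf as well, and the homozygous knockouts had it in both copies. Tamoxifen was injected intraperitoneally at 33 mg/kg on 5 consecutive days, and tissue was collected 10 days later from animals on normal chow. Each library came from 1 aorta that had been stripped of its adventitia and endothelium, per the labels, and neither strain, sex nor age is given in the sources used here. The comparison rests on 3 heterozygous libraries (replicates 1, 2 and 3) and 2 homozygous libraries (replicates 2 and 3). Homozygous replicate 1 was not analysed here, and the series' design text states that a homozygous sample was set aside as an outlier or sampling error.

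Tropomyosins are coiled-coil dimers that join end to end along the groove of the actin filament and control which other proteins, myosin among them, can reach it. Tropomodulins cap the slow-growing pointed end of the filament and bind the tropomyosin that lies there. Leiomodins are relatives of the tropomodulins that bind the same end but start and lengthen filaments, and Lmod1 is the form of smooth muscle. Serum response factor binds a short DNA element, the CArG box, and drives many actin and smooth muscle genes together with its cofactor myocardin. Each tropomyosin gene gives several proteins through alternative starts and exons, and a count per gene adds these up. GENCODE release M21 lists 21 transcripts for Tpm1, 6 for Tpm2, 16 for Tpm3 and 2 for Tpm4, and muscle and nonmuscle forms were not separated here.

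Library totals ran from 26177821 to 34311855 counts, and values below are CPM, counts scaled to the library total with edgeR's TMM factors. Srf itself measured 56.1, 64.4 and 68.3 CPM in controls against 45.0 and 38.6 CPM in knockouts, so counts assigned to the gene remained in the knockouts. All 2893 merged exon bases of Srf lie within the span of Gm26904 on the opposite strand. The strand setting of the counting is not given, so the Srf values are uncertain. Smooth muscle markers were present throughout, with a sum over 8 genes of 24640 to 25820 CPM in heterozygous and 14440 and 14810 CPM in homozygous libraries. RNA of other tissues was present too. The sum over 12 skeletal muscle markers was 12.5 to 677 CPM in heterozygous and 999 and 2728 CPM in homozygous libraries, and that over 10 adipocyte markers 1771 to 2668 against 3204 and 3402 CPM. Heterozygous replicate 3 held the least skeletal muscle RNA and homozygous replicate 3 the most. These libraries lay at opposite ends of the first principal component, at 56.4 and -42.9. Between them stood heterozygous replicates 2 (8.67) and 1 (-1.66) and homozygous replicate 2 (-20.5).

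Tpm1, Tpm2 and Lmod1 were lower in both homozygous libraries than in any heterozygous library, by about the same proportion, while Tpm3, Tmod2 and Tmod3 had overlapping groups and estimates close to 0. Tpm4 lay between these sets and Tmod1 overlapped. The test across all genes, edgeR's quasi-likelihood test with Benjamini-Hochberg adjustment at 0.05, called 0 of the 8 members and 0.0% of the 18192 genes tested. Some other settings called more. At an unadjusted p under 0.05 the same test gave 4 of 8 members lower (Tpm1, Tpm2, Tpm4 and Lmod1), against 6.75% of all genes tested. DESeq2 called 3 of 8 lower (Tpm1, Tpm2 and Lmod1) at an adjusted p under 0.05, against 2.61% of the genes it gave an adjusted p. edgeR without a filter on low counts called the same 3, against 1.42% of genes, and limma-voom called 0. The groups did not overlap, with the homozygous libraries lower, for 4 of 8 members and for 18.2% of all genes tested. The median log2 fold change over the 8 members was -0.28, beside -0.02 over all genes tested. Without heterozygous replicate 3, at an end of the first principal component, the median was -0.14. The estimates were then -0.55 for Tpm1, -0.60 for Tpm2, -0.69 for Lmod1 and -0.25 for Tpm4. Without homozygous replicate 3, at the other end, the median was -0.39. The estimates were then -0.58 for Tpm1, -0.59 for Tpm2, -0.57 for Lmod1 and -0.41 for Tpm4. In whole tissue, fewer smooth muscle cells and less RNA per cell cannot be told apart.

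**Figure D1:**
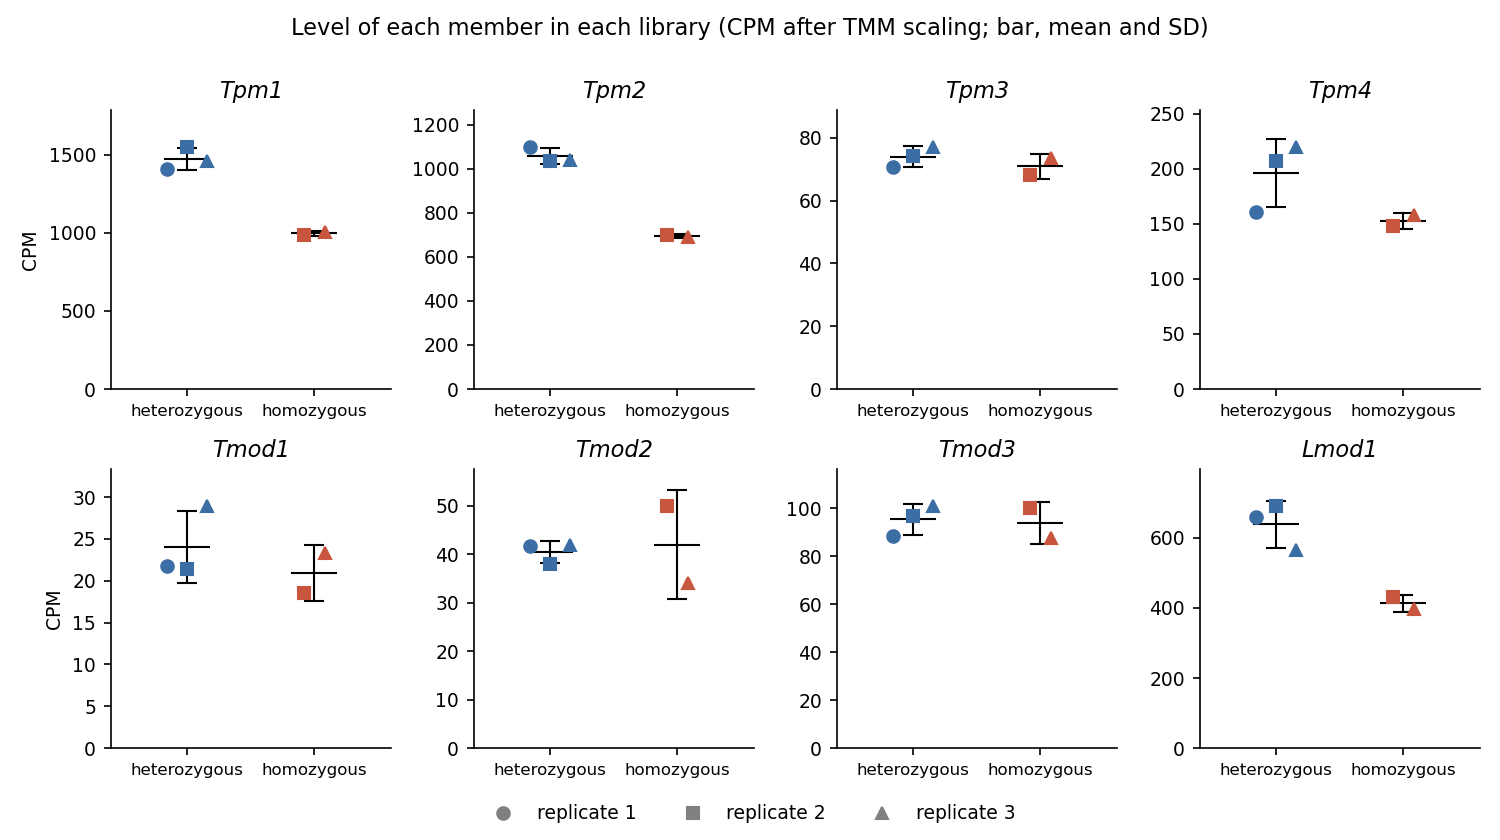
Level of each of the 8 genes in CPM (vertical axes from 0, each panel with its own scale) in 3 heterozygous libraries (blue) and 2 homozygous libraries (red), with symbols for the replicate number and black bars for the group mean and SD. The groups are apart for Tpm1, Tpm2, Tpm4 and Lmod1 and overlap for Tpm3, Tmod1, Tmod2 and Tmod3.

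Tpm2, known from smooth and skeletal muscle as beta-tropomyosin (chromosome 4, 43514711 to 43523765, minus strand, GRCm38), measured 1100, 1034 and 1040 CPM in controls against 700 and 689 CPM in knockouts. The libraries of each group lay close together, with means of 1058 ± 36.4 CPM (SD, n = 3) and 695 ± 7.70 CPM (SD, n = 2). Its log2 fold change, homozygous over heterozygous, was -0.61 (SE 0.0979, 95% interval -0.84 to -0.38). The edgeR adjusted p was 0.104, which was also the lowest of any gene, and Tpm2 ranked 70 of 18192 genes by p. DESeq2 gave it an adjusted p of 2.64e-08.

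Tpm1, or alpha-tropomyosin, the other main muscle form (chromosome 9, 67022590 to 67049406, minus strand), measured 1407, 1551 and 1460 CPM in controls against 984 and 1007 CPM in knockouts. All 3 control values lay above both knockout values by a margin larger than the spread within either group. The log2 fold change was -0.56 (SE 0.104, 95% interval -0.81 to -0.32), with an adjusted p of 0.106 by edgeR and of 5.4e-06 by DESeq2.

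Lmod1 (chromosome 1, 135324807 to 135368065, plus strand), the filament nucleator of smooth muscle, measured 659, 692 and 564 CPM in controls against 430 and 397 CPM in knockouts. Heterozygous replicate 3 was the lowest control, and it still lay well above both knockouts. The log2 fold change was -0.63 (SE 0.122, 95% interval -0.91 to -0.34), with an adjusted p of 0.109 by edgeR and of 0.000343 by DESeq2. It was -0.69 without heterozygous replicate 3 and -0.55 without heterozygous replicate 2.

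Tpm4, a tropomyosin of nonmuscle cells (chromosome 8, 72134975 to 72153142, plus strand), measured 161, 207 and 220 CPM in controls against 148 and 158 CPM in knockouts. The groups were separate only narrowly, since heterozygous replicate 1 lay just above homozygous replicate 3. The log2 fold change was -0.36 (SE 0.146, 95% interval -0.70 to -0.01), with an adjusted p of 0.297 by edgeR and of 0.231 by DESeq2. It was -0.48 without heterozygous replicate 1 and -0.25 without heterozygous replicate 3. Of the 100-base words of its transcripts, 9.22% also occur in Gm7809 and the antisense gene Gm26586, which had 0 to 5 counts in any library.

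Tpm3, the tropomyosin of slow muscle and of many nonmuscle cells (chromosome 3, 90072649 to 90100902, plus strand), measured 70.6, 74.2 and 77.2 CPM in controls against 68.1 and 73.6 CPM in knockouts. Its groups overlapped, and the log2 fold change of -0.06 (SE 0.0911) had a 95% interval of -0.28 to 0.15. With 1 library left out at a time it ranged from -0.12 (without homozygous replicate 3) to -0.01 (without homozygous replicate 2). The 95% interval lies above the estimates for Tpm1, Tpm2 and Lmod1. Tpm3 shares 15.8% of its words with Tpm3-rs7, a copy on another chromosome that had 6 to 14 counts in any library.

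The tropomodulins stood much lower than Lmod1. Tmod3, the widely expressed form (chromosome 9, 75497707 to 75559657, minus strand), was at 88.3, 97.0 and 101 CPM in controls against 99.97 and 87.8 CPM in knockouts. Its knockout libraries lay inside or just below the range of the controls, and the log2 fold change was -0.02 (SE 0.106, 95% interval -0.27 to 0.23). Its sign turned when heterozygous replicate 2, heterozygous replicate 3 or homozygous replicate 3 was left out.

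Tmod2, the form known from neurons (chromosome 9, 75565621 to 75611325, minus strand, next to Tmod3), measured 41.7, 37.9 and 41.8 CPM in controls against 49.98 and 34 CPM in knockouts. The knockouts thus held both the highest and the lowest value, and the log2 fold change was 0.05 (SE 0.162, 95% interval -0.33 to 0.44). It was -0.25 without homozygous replicate 2 and 0.31 without homozygous replicate 3. The same libraries were at the extremes of the 8 endothelial markers, whose sum was 1160 CPM in homozygous replicate 2 and 419 CPM in homozygous replicate 3, against 769 to 1016 CPM in heterozygous libraries. The 10 Schwann cell and neuron markers, 8 of them tested, summed to 60.5 and 48.0 CPM in those libraries and to 25.3 to 45.7 CPM in the controls. The part of these cells in the Tmod2 values was not tested.

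Tmod1, the form of striated muscle and red blood cells (chromosome 4, 46038935 to 46116032, plus strand), measured 21.7, 21.4 and 28.96 CPM in controls against 18.5 and 23.3 CPM in knockouts. Heterozygous replicate 3 was the highest and the groups overlapped. The log2 fold change was -0.20 (SE 0.172, 95% interval -0.60 to 0.21), and it was -0.03 without heterozygous replicate 3. Tmod1 shares 30.1% of its words with other genes, most often with Tstd2, which lies across its end on the opposite strand and stood at 24.0 to 27.2 CPM in the 5 libraries. The Tmod1 values are uncertain, because no source used here gives the strand setting of the counting. The 5 erythrocyte markers summed to 37.9, 297 and 87.7 CPM in controls and to 23.9 and 28.9 CPM in knockouts, and their part in Tmod1 was not tested.

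**Figure D2:**
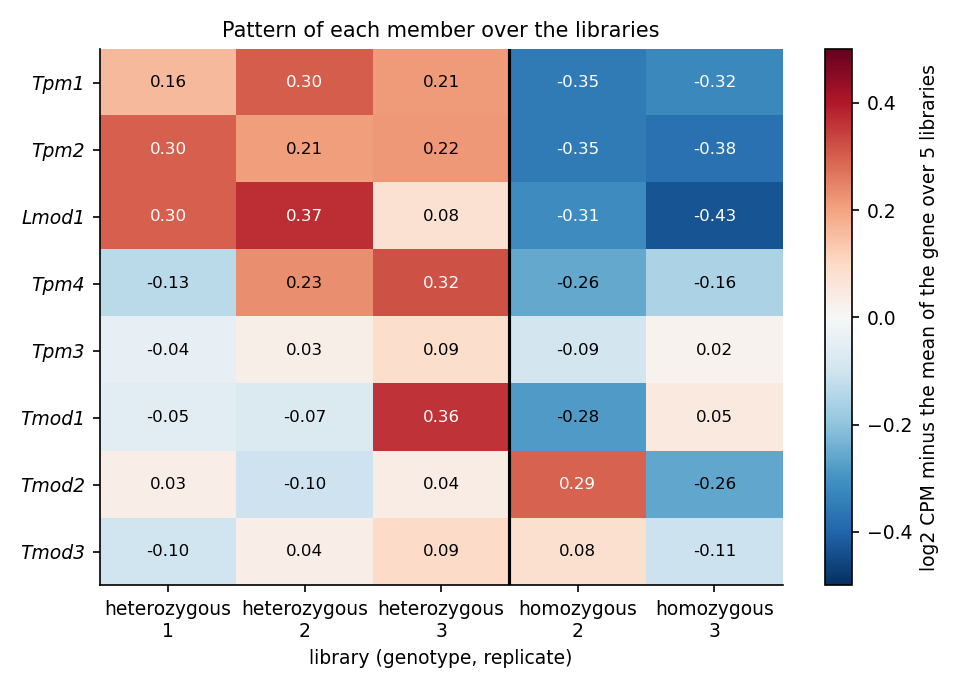
Log2 CPM of each gene (rows) minus the mean of that gene over the 5 libraries (columns, with a black line between heterozygous and homozygous), printed in each cell and coloured from blue (below the mean) to red (above). Tpm1, Tpm2 and Lmod1 are positive in all 3 heterozygous and negative in both homozygous libraries, while Tmod2 has opposite signs in the 2 homozygous libraries.

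Set side by side as departures from the mean of each gene, Tpm1, Tpm2 and Lmod1 lay close together. The root mean square difference over the 5 libraries was 0.0779 on the log2 scale between Tpm1 and Tpm2, 0.10 between Tpm2 and Lmod1 and 0.106 between Tpm1 and Lmod1. Tpm3 and Tmod3 were as near to each other (0.0992), and Tpm3 lay 0.251 from Tpm1 and Tmod3 0.326 from Lmod1. Tpm4 had Tpm1 as its nearest member (0.166), with Tmod1 (0.17) and Tpm3 (0.18) about as near, the nearest to Tmod1 was Tpm3 (0.156) and the nearest to Tmod2 was Tmod3 (0.149), while Tmod1 and Tmod2 lay 0.329 apart. These values include the difference between the groups and are a description of 5 libraries. Among all tested genes with a mean of at least 10 CPM, the 3 nearest to Tpm1 were Asb2 (0.0348), Fgfr2 (0.0385) and Cap1 (0.0415). Cap1 is a protein that recycles actin monomers. The 3 nearest to Lmod1 were Cnn2 (0.0577), a calponin, Msrb1 (0.058) and Tes (0.061), and those nearest to Tmod1 were Pamr1 (0.0592), Mpp5 (0.0627) and Ppp2r3a (0.0686).

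The promoters of the members that stood lower together were read beside those of Tpm3, to show whether the CArG box is spelled out near their starts. RefSeq windows of 300 bases on GRCm38.p6, from 250 bases before the start to 50 after it, were at hand for 7 of the 8 members (9 windows). The CArG box was searched on both strands in its exact form and with 1 G or C among its 6 inner bases. MCAT (CATTCC), the element of the TEAD factors, was searched on both strands too. Capitals mark these matches in the windows of Tpm1, Tpm2, Lmod1 and the 2 starts of Tpm3.
Tpm1 (chr9:67049164-67049463, minus strand): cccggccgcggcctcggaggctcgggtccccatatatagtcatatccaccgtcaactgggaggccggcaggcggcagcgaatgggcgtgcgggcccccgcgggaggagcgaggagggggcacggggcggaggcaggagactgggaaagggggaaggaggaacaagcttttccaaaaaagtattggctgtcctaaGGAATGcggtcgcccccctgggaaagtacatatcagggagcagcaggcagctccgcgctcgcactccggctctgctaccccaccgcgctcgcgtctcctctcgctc
Tpm2 (chr4:43523505-43523804, minus strand): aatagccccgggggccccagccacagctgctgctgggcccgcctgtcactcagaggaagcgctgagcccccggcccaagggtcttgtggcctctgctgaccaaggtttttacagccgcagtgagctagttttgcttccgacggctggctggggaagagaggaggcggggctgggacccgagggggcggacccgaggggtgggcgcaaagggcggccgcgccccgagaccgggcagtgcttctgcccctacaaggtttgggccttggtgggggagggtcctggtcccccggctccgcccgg
Lmod1 (chr1:135324563-135324862, plus strand): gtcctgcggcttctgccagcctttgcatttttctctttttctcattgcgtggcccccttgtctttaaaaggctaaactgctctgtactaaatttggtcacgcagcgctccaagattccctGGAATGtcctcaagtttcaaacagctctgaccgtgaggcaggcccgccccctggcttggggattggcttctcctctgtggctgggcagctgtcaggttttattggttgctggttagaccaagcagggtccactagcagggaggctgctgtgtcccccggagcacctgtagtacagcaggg
Tpm3 (chr3:90072401-90072700, plus strand): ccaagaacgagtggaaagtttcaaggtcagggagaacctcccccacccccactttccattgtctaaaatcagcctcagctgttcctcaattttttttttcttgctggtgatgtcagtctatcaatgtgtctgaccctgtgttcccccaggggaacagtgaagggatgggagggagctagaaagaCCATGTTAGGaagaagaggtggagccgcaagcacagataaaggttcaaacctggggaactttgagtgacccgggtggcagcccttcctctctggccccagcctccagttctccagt
Tpm3 (chr3:90079271-90079570, plus strand): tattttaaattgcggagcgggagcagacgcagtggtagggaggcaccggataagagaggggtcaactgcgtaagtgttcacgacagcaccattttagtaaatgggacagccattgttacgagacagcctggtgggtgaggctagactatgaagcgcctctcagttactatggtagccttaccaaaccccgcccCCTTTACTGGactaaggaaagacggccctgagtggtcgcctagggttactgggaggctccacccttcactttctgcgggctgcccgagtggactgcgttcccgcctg

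An exact CArG box occurred in 0 of the 9 windows of members, beside 1.63% of the 32851 RefSeq windows of the mouse. The form with 1 G or C occurred in both windows of Tpm3, 66 and 57 bases before their starts, beside 8.5% of all windows. MCAT occurred in 3 windows of members, at 56 bases before the start in Tpm1, at 130 in Lmod1 and at 163 in Tmod1, beside 14.7% of all windows. The same search found 2 exact CArG boxes in the window of Srf and 2 of the other form in that of Acta2, the smooth muscle actin gene. The window of Tpm2 held neither element. Both forms required the outer CC and GG of the CArG box, so a change in an outer base was not counted. Runs with 1 other outer base were left unmarked, such as ccatatatag in Tpm1, ctaaatttgg in Lmod1 and ccattttagt in a window of Tpm3. The share of all windows with such runs was not counted. A match is a run of letters and not a measured binding site, and a window of this length leaves out introns and distant elements.

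**Figure D3:**
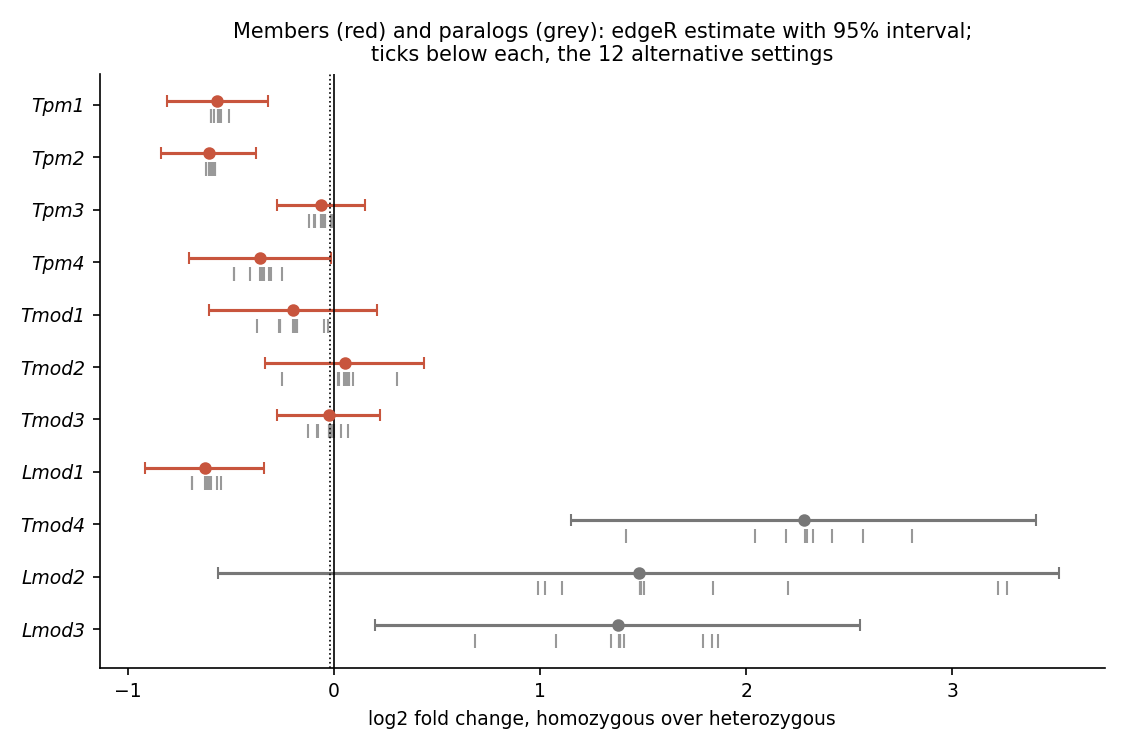
Log2 fold change (horizontal axis, homozygous over heterozygous) of the 8 genes (red) and of 3 paralogs of striated muscle (grey), as edgeR estimates with their 95% intervals, and grey ticks below each for the 12 alternative settings. The solid line marks 0 and the dotted line the median of all genes tested (-0.02). Tpm1, Tpm2 and Lmod1 lie left of 0 under every setting drawn.

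Levels can be compared between genes only per length, for which CPM was divided by the length of the merged exons in kb. In heterozygous libraries the order was Tpm2 (364 ± 12.5 CPM per kb, SD, n = 3), Tpm1 (227 ± 11.2), Lmod1 (162 ± 16.7), Tpm4 (89.0 ± 14.1), Tpm3 (12.2 ± 0.544), Tmod3 (8.56 ± 0.584), Tmod1 (6.09 ± 1.08) and Tmod2 (3.46 ± 0.192). No neighbours in this order overlapped between libraries, and the order was the same in the homozygous group. With the longest transcript as the length, Tpm1 stood above Tpm2 (509 ± 25.2 against 486 ± 16.7 CPM per kb) and their ranges overlapped, so the order of these 2 depends on the length used. Between the pointed-end proteins, Lmod1 exceeded Tmod3 by 21.1, 20.1 and 15.8 times per kb in the heterozygous and by 12.2 and 12.8 times in the homozygous libraries. With the longest transcripts this was 7.40, 7.08 and 5.54 against 4.27 and 4.49 times.

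The summed tropomyosin transcripts were lower in the knockouts. Tpm1, Tpm2, Tpm3 and Tpm4 together measured 2738, 2866 and 2797 CPM in controls against 1900 and 1927 CPM in knockouts. The log2 difference was -0.55, and the groups were far apart relative to their SDs of 64.2 CPM (n = 3) and 19.4 CPM (n = 2). A two-sided exact permutation test gave p = 0.2, which is the smallest that 3 against 2 libraries can give. Shares of this pool were taken per kb, and those of Tpm1, Tpm2 and Tpm4 overlapped between the groups. Tpm2 took 55.6%, 50.7% and 51.4% of it in the heterozygous and 51.1% and 49.8% in the homozygous libraries, and it differed by -2.13 percentage points, or -0.61 without heterozygous replicate 1. Tpm1 took 31.9%, 34.1% and 32.4% against 32.2% and 32.6%. Tpm3 took 1.71%, 1.74% and 1.83% against 2.38% and 2.54%, the only share of the 4 whose groups did not overlap (exact permutation p = 0.2, adjusted over the 4 shares p = 0.533). A share also rises when the rest of the pool is lower, and the CPM of Tpm3 itself overlapped between the groups. Tpm4 took 10.7%, 13.4% and 14.4% against 14.2% and 15.1%.

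**Figure D4:**
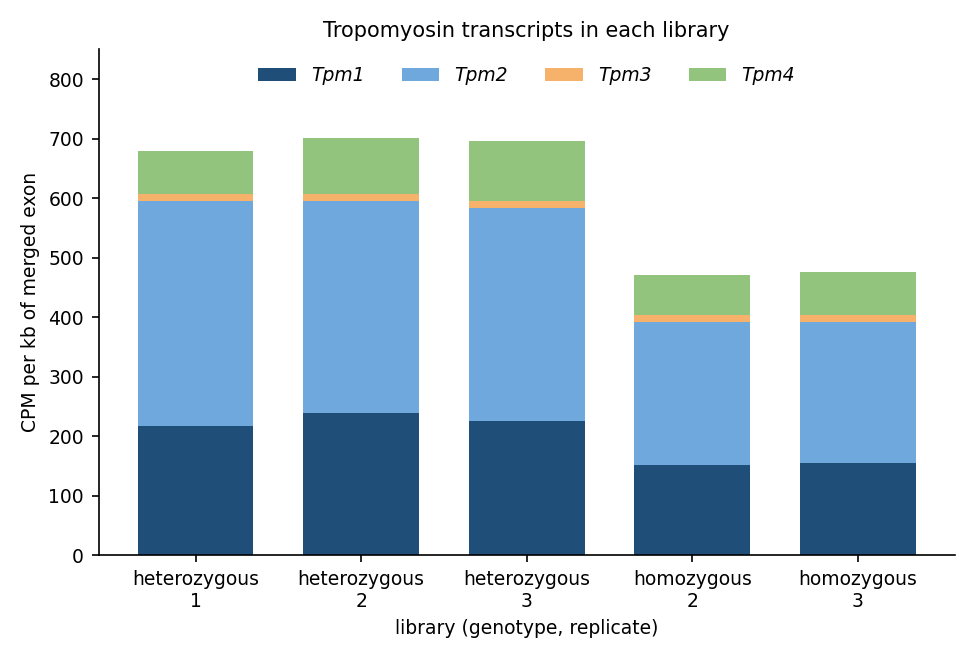
Tropomyosin transcripts in each library as stacked bars, in CPM per kb of merged exon (vertical axis from 0), with a colour for each gene. The 3 heterozygous libraries stand at 680 (replicate 1), 701 (replicate 2) and 695 (replicate 3) and the homozygous libraries at 471 and 476.

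Ratios between members within a library do not depend on how libraries are scaled, and 6 were compared. Lmod1 over Tmod3 was 2.90, 2.83 and 2.48 on the log2 scale of counts in the heterozygous and 2.11 and 2.18 in the homozygous libraries, a difference of -0.60 with separate groups. Tpm3 over Tpm4 was -1.19, -1.48 and -1.51 against -1.12 and -1.10, also separate, with a difference of 0.29. The exact permutation p was 0.2 for each of these, the smallest possible, and 0.6 when adjusted over the 6 ratios. The other four ratios overlapped between groups. Tpm1 over Tpm2 differed by 0.04 (heterozygous SD 0.115, homozygous SD 0.0392), less than the spread among the controls. Tpm1 over Tpm4 differed by -0.22 and Tpm2 over Tpm4 by -0.26, or by -0.11 and -0.095 without heterozygous replicate 1, and Tmod1 over Tmod3 by -0.17.

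The remaining paralogs, Tmod4, Lmod2 and Lmod3, are known from skeletal and heart muscle and had higher means in the homozygous libraries. Tmod4, the tropomodulin of fast muscle, measured 1.23, 0.949 and 0.517 CPM in controls against 2.44 and 6.42 CPM in knockouts, with separate groups. Its log2 fold change was 2.28 (SE 0.477, edgeR adjusted p = 0.115, DESeq2 adjusted p = 0.000869, with 3.33% of genes called higher by DESeq2) and 1.42 without homozygous replicate 3. These values rest on 13 to 209 counts per library. Lmod3 stood at 2.92, 1.75 and 0.875 against 3.01 and 6.70 CPM, or 1.38 as log2 fold change (SE 0.498, edgeR adjusted p = 0.255), and 0.68 without homozygous replicate 3. Lmod2 overlapped between the groups, at 5.07, 0.830 and 0.358 against 4.21 and 7.62 CPM, or 1.48 as log2 fold change (SE 0.863, edgeR adjusted p = 0.466), and 3.27 without heterozygous replicate 1.

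The skeletal muscle markers moved with these paralogs. Their sum measured 677, 328 and 12.5 CPM in controls against 999 and 2728 CPM in knockouts, and Tmod4 and Lmod3 ranked the 5 libraries in the same order. All 12 markers were tested, 10 had separate groups with the knockouts higher, against 17.4% of all genes tested, and none was at 0 in every library. At an adjusted p under 0.05, edgeR and DESeq2 each called 0 of the 12. At an unadjusted p under 0.05 edgeR gave 7 higher and 0 lower, against 1644 of 18192 genes higher. Without a filter on low counts, edgeR called 11 higher at an adjusted p under 0.05, against 982 of 30400 genes. Troponins, which act on tropomyosin in striated muscle, had separate groups for 4 of 8 genes, with the knockouts higher, and a sum of 113, 56.2 and 14.6 against 162 and 410 CPM. Tnnt3 stood at 49.9, 26.3 and 3.50 against 80.5 and 204 CPM and Tnnc2 at 25.9, 10.8 and 0.398 against 37.7 and 96.3 CPM. Skeletal muscle also uses Tpm1, Tpm2 and Tpm3. Both homozygous libraries had more skeletal marker RNA and less Tpm1 and Tpm2 than any control, which is the difference between the groups. Within the groups the order was mixed. Heterozygous replicate 1, with the most skeletal marker RNA of the controls, had their highest Tpm2 (1100 CPM) and lowest Tpm1 (1407 CPM). Homozygous replicate 3 had more Tpm1 than homozygous replicate 2 (1007 against 984 CPM) and less Tpm2 (689 against 700 CPM). The part of skeletal muscle RNA in the values of the tropomyosins was not tested.

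**Figure D5:**
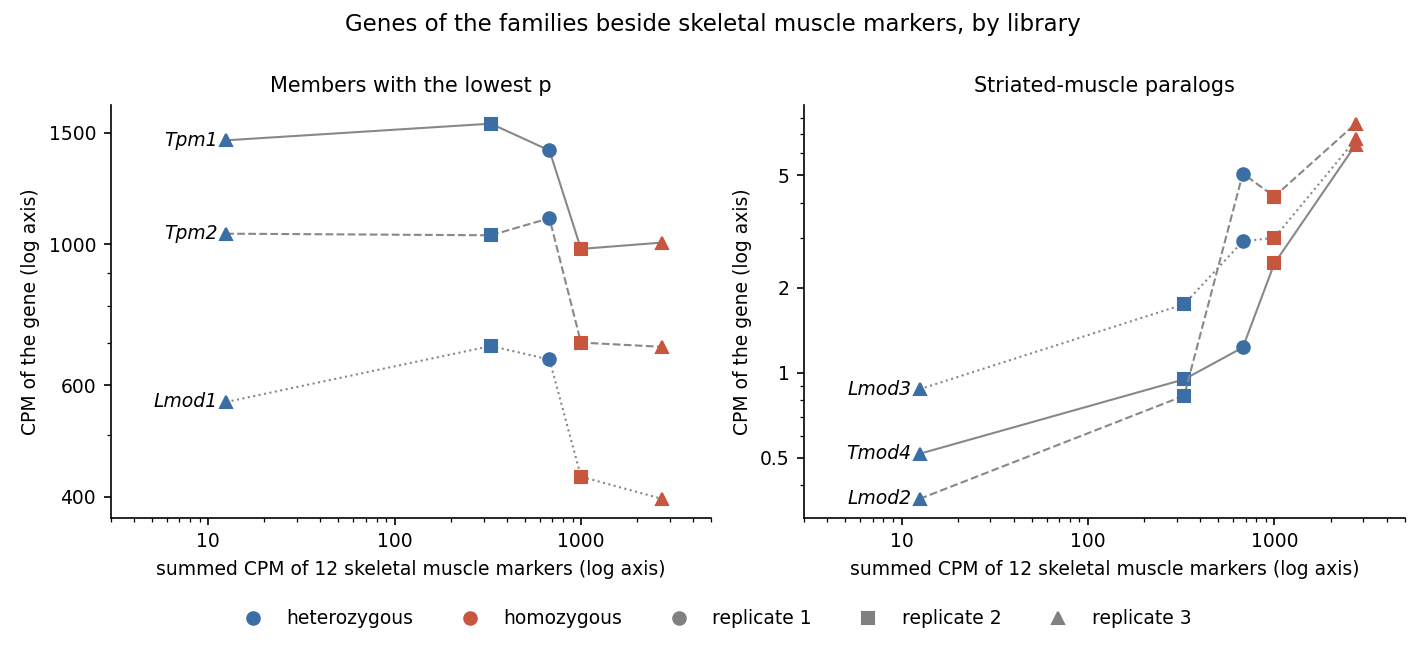
CPM of Tpm1, Tpm2 and Lmod1 (left) and of Tmod4, Lmod2 and Lmod3 (right) against the summed CPM of 12 skeletal muscle markers, both axes logarithmic, with a point for each heterozygous (blue) and homozygous (red) library, a symbol for its replicate number and a line joining the libraries of a gene. Tmod4 and Lmod3 follow the order of the markers, while Tpm1, Tpm2 and Lmod1 are lower in the 2 homozygous libraries.

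The partners of tropomyosin in the smooth muscle thin filament and in myosin stood lower too. Of 21 such genes, all tested, edgeR called 0 at an adjusted p under 0.05. At an unadjusted p under 0.05 it gave 17 lower, against 6.75% of all genes tested, and 0 higher. DESeq2 called 16 lower, against 2.61% of the genes it gave an adjusted p. The median log2 fold change of the 21 genes was -0.63. Of them, 18 had separate groups with the homozygous libraries lower, against 18.2% of all genes tested. Myl6, a light chain of myosin, stood at 1104, 1036 and 1090 against 647 and 623 CPM, with a log2 fold change of -0.76 (SE 0.099). Acta2, the main actin of smooth muscle, gave -0.90 (SE 0.133), Cnn1, a calponin, -0.91 (SE 0.111) and Myh11, the smooth muscle myosin, -0.77 (SE 0.121). These 4 were named as the most abundant or lowest-p of the list, and the list's median was close to the estimates for Lmod1 (-0.63), Tpm2 (-0.61) and Tpm1 (-0.56).

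Proteins that cap, cut or feed actin filaments were mixed. Of 20 genes, edgeR called 0. At an unadjusted p under 0.05 it gave 9 lower, against 6.75% of all genes tested. It gave 1 higher, against 1644 of the 18192 genes tested. DESeq2 called 6 lower and 1 higher, against 2.61% and 3.33% of the genes it gave an adjusted p. The median log2 fold change of the 20 genes was -0.19, and it was -0.12 without heterozygous replicate 1. Dstn, destrin, which severs filaments, measured 1269, 1273 and 1055 CPM in controls against 629 and 758 CPM in knockouts. Its log2 fold change was -0.79 (SE 0.14). Pfn1, profilin 1, a carrier of actin monomers, gave -0.47 (SE 0.0931), and Gsn, gelsolin, the most abundant of the list, gave 0.13 (SE 0.135) with overlapping groups.

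Markers of the other cells that these samples could hold were summed for comparison. Mural cell genes outside the contractile apparatus, 11 in number, ran from 4553 to 5801 CPM in controls against 3758 and 4488 CPM in knockouts. Their median log2 fold change was -0.19, or -0.08 without heterozygous replicate 1, against -0.75 over the 8 smooth muscle markers. Single mural genes ranged from -0.89 to 0.225. Of the 11, 4 had separate groups with the knockouts lower, against 18.2% of all genes tested. DESeq2 called 3 lower and 0 higher, against 2.61% and 3.33% of the genes it gave an adjusted p. Brown fat markers (7 genes) ran from 256 to 667 CPM against 981 and 1057 CPM, with a median of 1.03, and adipocyte markers had a median of 0.61. Macrophage markers (8 genes) ran from 249.5 to 351 CPM against 405 and 548 CPM, with a median of 0.64. Fibroblast markers (8 genes) ran from 1301 to 1842 CPM against 1813 and 2015 CPM, with a median of 0.33. Cardiac and slow muscle markers (10 genes, 9 tested) ran from 406 to 542 CPM against 469 and 492 CPM, with a median of 0.86. Ryr2 alone made up most of this sum in every library, at 346 to 519 CPM in controls against 434 and 403 CPM in knockouts. The median was 0.04 for endothelial, 0.51 for Schwann cell and neuron, and -2.53 for erythrocyte markers. Leaving out 1 library moved several of these medians by over 1.5 times, for macrophage (0.38 without homozygous replicate 3), cardiac (-0.07 without homozygous replicate 3), endothelial (-0.62 without homozygous replicate 2), fibroblast (0.19 without heterozygous replicate 3), Schwann cell and neuron (0.29 without homozygous replicate 2) and erythrocyte markers (-1.43 without heterozygous replicate 2). Of the most abundant gene of each list, the log2 fold change was 2.69 (SE 1.30) for Myh1 of skeletal muscle. It was 0.84 (SE 0.19) for Fabp4 of adipocytes, 1.58 (SE 0.48) for Ucp1 of brown fat and 0.82 (SE 0.16) for Lyz2 of macrophages. Dcn of fibroblasts gave 0.33 (SE 0.21), Mbp of Schwann cells 0.67 (SE 0.20) and Ryr2 of the cardiac list 0.01 (SE 0.18). Rgs5 of mural cells gave -0.32 (SE 0.31), Vwf of endothelium -0.25 (SE 0.55) and Hbb-bs of red cells -2.31 (SE 0.83). No listed marker was at 0 in all 5 libraries, and edgeR called 0 of them, as it called 0 of all genes tested. DESeq2 called 5 of 10 adipocyte, 3 of 7 brown fat and 4 of 8 macrophage markers higher and 0 lower. The share over the genes it gave an adjusted p was 3.33% higher. It called 0 of the fibroblast, cardiac, endothelial, Schwann cell and neuron, and erythrocyte markers. Groups were separate with the knockouts higher for 8 adipocyte, 7 brown fat and 6 macrophage markers, against 17.4% of all genes tested. The part of these cells in the members' values was not tested.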

How the data were processed

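The deposited table holds raw counts per gene, whole numbers, for 5 libraries. The submitters' processing notes name fastp 0.20.0, STAR 2.7.0f, featureCounts of Subread 1.6.4 and the build GRCm38, with no annotation release or strand setting. Libraries were TruSeq stranded poly(A) preparations, per the labels. Columns were matched to samples by their descriptions.

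Counts were filtered with filterByExpr, scaled by TMM and tested on all genes with edgeR 4.0.16 (R 4.3.3) by quasi-likelihood on group alone, with Benjamini-Hochberg adjustment at 0.05. SEs are the log2 fold change over the root of its F value, and 95% intervals use the test's degrees of freedom. With 3 and 2 animals, p-values reflect only the variation among these animals. Pools, shares and ratios used two-sided exact permutation tests (scipy 1.17.1). Gene models and word sharing came from GENCODE M21, and promoters from RefSeq. Scripts were tested on simulated data.

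The members and lists were chosen with earlier results of these data known. Named were all members, their 3 paralogs, Srf, the 2 most abundant and the 2 lowest-p genes of the thin filament and filament-end lists, the 2 most abundant troponins, the most abundant gene of each marker list, and the 3 genes nearest to Tpm1, Lmod1 and Tmod1. Genes sharing words or lying antisense were looked up after the values were seen. Alternatives were other scalings, filters and tools (DESeq2 1.42.0, limma 3.58.1), a replicate block, and each library left out.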

Additional observations from a re-analysis of the deposited data

How the results depend on the processing

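Tpm1, Tpm2 and Lmod1 kept their direction in all 12 alternatives, from -0.60 to -0.51, from -0.62 to -0.58 and from -0.69 to -0.55. edgeR called 0 members, DESeq2 called 3 lower and edgeR without a low-count filter 3 lower, where the prior degrees of freedom were 29.5 in place of 4.01. Over all genes, the calls were 0 lower and 0 higher by edgeR, 411 and 524 by DESeq2, 432 and 982 without the filter, 1 and 0 by limma-voom, 2 and 3 with the replicate block, 9 and 139 without heterozygous replicate 2, and 0 and 1 without homozygous replicate 3. The members' median of -0.28 ranged from -0.39 (without homozygous replicate 3) to -0.14 (without heterozygous replicate 3) and was -0.37 with the replicate block. The replicate numbers were not taken as pairs. Deviations from the group mean correlated at -0.108 and -0.321 between same-numbered libraries. The deviations of the 2 homozygous libraries mirror each other by construction, so these values cannot show whether libraries were paired. The replicate block changed no member's call.

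With each library left out, Tmod2 ranged from -0.25 (without homozygous replicate 2) to 0.31 and Tmod3 from -0.12 to 0.068. The difference in Tpm1's share ranged from -0.83 to 0.28 percentage points (positive without heterozygous replicate 2), that of Tpm1 over Tpm2 from -0.018 (without heterozygous replicate 1) to 0.097 and that of Tmod1 over Tmod3 from -0.43 to 0.088 (without homozygous replicate 2). The cardiac marker median ranged from -0.072 (without homozygous replicate 3) to 1.31 and the endothelial median from -0.62 to 0.49, with -0.043 by limma-voom and -0.088 with the replicate block. The cause of these turns was not tested. With 1 homozygous library left, it is assumed to vary like the others.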
